A study of Rattus norvegicus with 6 samples.

Results

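The genes described here encode 8 C-type lectin-like receptors, Klrb1c, Klrb1, Klrd1, Klrg1, Olr1, Clec7a, Cd69 and Cd72, measured on 6 rat Affymetrix arrays. They are 8 of the 14506 genes with a probe set that the platform annotation links to exactly 1 gene symbol. The set was chosen by family membership with the measured values in view: Klrb1c and Olr1 lead it because their signal was higher with curdlan. Their differences are therefore given as a description, with no test. The rule kept, per gene, the probe set with the highest mean over the 6 arrays, and each of the 8 genes had a single such probe set. The changes of the other 6 genes carry the adjusted p of a fit over all 29214 probe sets, but they too were picked with earlier results known, so these p-values are not independent support.

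All arrays came from RBL-2H3, a rat basophilic leukaemia line used as a model of mast cells, overexpressing wild-type Dectin-1, the beta-glucan receptor. There were 3 groups of 2 arrays: unstimulated control cells, cells given curdlan, a beta-glucan in particle form that binds Dectin-1, and cells pretreated with R406, an inhibitor of the kinase Syk, and then given curdlan. All 3 groups thus carried the Dectin-1 construct, and no array of the parental line was analysed here. The sources used here do not give the doses, the times, the species of the construct, whether the line is 1 clone, or whether the arrays of a group are separate cultures. The p-values therefore measure only how far these arrays spread, and that spread may be technical.

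C-type lectin-like receptors are mostly type II membrane proteins whose outer part folds as a C-type lectin-like domain. Many sit in the natural killer gene complex, a cluster of receptor genes that also encodes the receptors by which natural killer cells are switched on or held back. Some members bind sugars, as Dectin-1 does, while others bind proteins or lipoproteins. Many of these receptors signal through tyrosine motifs in their own tail or in a partner chain. Such motifs often recruit Syk-family kinases or phosphatases.

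In the RefSeq order of the assembly GRCr8, 7 of the 8 genes lie on chromosome 4 and Cd72 lies on chromosome 5. Klrg1 comes first and is separated from Klrb1c by 212 genes. Klrb1 follows Klrb1c with 1 gene between them, then come Cd69 after 9 genes and Clec7a after 8 genes. Olr1 is the next gene to Clec7a, with 0 genes between them, and Klrd1 follows after 4 genes.

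The RefSeq table of promoter sequences held 4 of the 8 genes, Klrb1c, Klrb1, Olr1 and Clec7a. Their windows are shown because they set the genes with the largest curdlan differences, Klrb1c and Olr1, beside a close relative, Klrb1, and beside an adjacent gene whose change was not called, Clec7a. Each is the 250 bases before the gene's start in GRCr8, on the gene's own strand. The coordinates are chr4:164067999-164068248 on the plus strand for Klrb1c, chr4:164142073-164142322 on the plus strand for Klrb1, chr4:164634548-164634797 on the minus strand for Olr1, and chr4:164599828-164600077 on the minus strand for Clec7a. The Olr1 window lies inside the gene span that RefSeq gives, and the Clec7a window partly inside it, because those spans begin upstream of the start used for the window. Capitals mark matches, on either strand, to AP-1 (TGANTCA), the NFAT core (GGAAA), the CRE core (TGACG) or the NF-kB consensus.
Klrb1c: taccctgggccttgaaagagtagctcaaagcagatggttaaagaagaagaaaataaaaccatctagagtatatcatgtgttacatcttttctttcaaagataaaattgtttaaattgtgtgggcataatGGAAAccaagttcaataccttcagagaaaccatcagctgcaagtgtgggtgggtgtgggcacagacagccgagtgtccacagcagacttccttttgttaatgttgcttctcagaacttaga
Klrb1: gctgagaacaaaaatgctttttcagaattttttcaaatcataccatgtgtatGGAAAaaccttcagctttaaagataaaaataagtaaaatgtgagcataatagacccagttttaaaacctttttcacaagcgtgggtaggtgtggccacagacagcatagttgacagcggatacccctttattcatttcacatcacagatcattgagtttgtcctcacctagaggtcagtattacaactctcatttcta
Olr1: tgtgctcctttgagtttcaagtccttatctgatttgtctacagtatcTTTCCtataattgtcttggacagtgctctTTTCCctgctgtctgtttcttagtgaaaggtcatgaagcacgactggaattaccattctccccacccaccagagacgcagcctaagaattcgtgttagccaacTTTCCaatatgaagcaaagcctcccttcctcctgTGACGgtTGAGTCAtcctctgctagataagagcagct
Clec7a: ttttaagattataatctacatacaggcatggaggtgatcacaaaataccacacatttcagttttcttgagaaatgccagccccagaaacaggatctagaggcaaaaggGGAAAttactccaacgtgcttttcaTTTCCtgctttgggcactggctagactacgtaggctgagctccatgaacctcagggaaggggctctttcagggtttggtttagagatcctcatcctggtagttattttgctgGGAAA

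The Olr1 window held an AP-1 match, TGAGTCA, at bases 30 to 24 before the start, and a CRE core match at bases 37 to 33. These matches do not overlap. Among all 33465 windows of this length, 6.34% held an AP-1 match and 18.2% a CRE core match, and neither motif was matched in the other 3 windows shown. NFAT core matches were common: 3 in Olr1, 3 in Clec7a, 1 in Klrb1c and 1 in Klrb1, against 56.9% of all windows with at least 1. None of the 4 windows matched the NF-kB consensus, which 3.54% of all windows held. The Egr core (GNGGGNG), which is not capitalised above, had 2 matches in Klrb1c that overlap each other, at bases 77 to 71 and 73 to 67, and 1 in Olr1, against 56.7% of all windows. These matches describe letters only. Whether any factor binds at these matches was not tested.

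Aligned end to end, the Klrb1c and Klrb1 windows shared 142 identical bases, 56.8% of the window. The longest run they had in common was 10 bases. Klrb1c shared a longer run of 18 bases, gtgggtgggtgtgggcac, with another relative, Klrb1a, starting 77 bases before the Klrb1c start and 103 bases before the Klrb1a start. This run holds the overlapping Egr core matches of Klrb1c, and Klrb1a has 2 such matches in it too. In an overlapping stretch, starting 80 bases before its start, Klrb1c shared a run of 17 bases with Klrb1b. That run also holds 2 Egr core matches in Klrb1b. Klrb1a itself had a curdlan difference of 0.15 ± 0.135 (SE) and was not called (limma, adjusted p = 0.693). Its control mean was low, at 5.05 and percentile 12.3, and whether either run bears on expression was not tested.

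The 6 arrays had nearly equal distributions, with medians between 7.20 and 7.24 log2 units. Within a group, 2 arrays correlated across probe sets at 0.9975 to 0.9981, and between groups at 0.9939 to 0.9967. Of 19 measured mast cell and basophil markers, the median control signal was 12.71, at a median percentile of 96.5 among all probe sets, with Kit at 12.71, Fcer1a at 12.81, Ms4a2 at 13.51 and Cpa3 at 13.50. The protease genes of the list differed widely in control. The tryptase genes Tpsab1 and Tpsb2 were at 6.20 and 6.39 and Mcpt4 at 6.71, while Mcpt8 was at 9.63, Mcpt1 at 12.33 and Cma1 at 12.78. Tph1, the enzyme of serotonin synthesis, was the 1 of the 19 markers called with curdlan, where 1.59% of all probe sets were called. It rose with curdlan by 0.72 ± 0.0792 (limma, adjusted p = 0.0295), a call lost without any 1 of the 6 arrays (adjusted p 0.0844 to 0.165), and it fell by 0.69 with R406 relative to curdlan (adjusted p = 0.0123), a call lost without either array of those groups (adjusted p up to 0.0995). The summed linear signal of the mast cell list was 111749 to 112023 in control, 112597 to 113681 in curdlan and 113302 to 113888 in R406 plus curdlan arrays.

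Klrb1c belongs to the NKR-P1 family, receptors known from natural killer cells that bind Clec2 proteins on other cells. Its log2 signal was 5.56 and 5.68 on the control arrays, 8.29 and 8.36 on the curdlan arrays, and 5.62 and 5.45 on the R406 plus curdlan arrays. Both curdlan arrays were far above all the others, and the control and R406 plus curdlan arrays overlapped. The curdlan minus control difference was 2.70 ± 0.0836 log2 units (SE of the fit, n = 2 arrays per group), or 6.52-fold. With R406 the signal was lower than with curdlan alone by 6.92-fold, a difference of -2.79 ± 0.0836. Against control, the R406 plus curdlan mean differed by -0.086 ± 0.0836, so that the part of the curdlan difference left was -3.17%. Its percentile among all probe sets was 19.4 in control, 61.5 with curdlan and 18.3 with R406 plus curdlan. These are bulk samples of a cell line, in which fewer cells with the transcript and less RNA per cell cannot be told apart.

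Klrb1, the near relative of Klrb1c in the same cluster, moved in the same directions by less. Its signal was 5.74 and 5.88 in control, 6.35 and 6.30 with curdlan, and 5.81 and 5.86 with R406 plus curdlan. The curdlan arrays were above the rest, while the R406 plus curdlan arrays lay within the control pair. Klrb1 rose with curdlan by 0.52 ± 0.0636, or 1.43-fold (limma, adjusted p = 0.0374), and was lower with R406 than with curdlan alone by 1.41-fold, a change of -0.49 ± 0.0636 (adjusted p = 0.0168). Without 1 array, the curdlan difference was 0.45 to 0.59 and the R406 minus curdlan difference -0.52 to -0.47. Such fits have fewer arrays to estimate the spread. The curdlan call was lost in each of them, and the R406 call without either curdlan or either R406 plus curdlan array. The difference left under R406 was 0.027 ± 0.0636 (adjusted p = 0.85), 5.22% of the curdlan difference. In RefSeq both Klrb1c and Klrb1 carry the older name Klrb1f, and whether their array probes bind both transcripts was not tested, so the smaller Klrb1 change is uncertain as a change of its own.

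Klrd1, known as CD94, forms receptors with the Klrc (NKG2) chains on natural killer cells. Its signal was 5.44 and 5.37 in control, 5.46 and 5.39 with curdlan, and 5.41 and 5.40 with R406 plus curdlan, and all groups overlapped. The curdlan difference was 0.015 ± 0.0524 (adjusted p = 0.939), with a 95% confidence interval of -0.12 to 0.15, and the R406 minus curdlan difference was -0.018 ± 0.0524 (adjusted p = 0.883).

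Klrg1 is known in the rat as the mast cell function-associated antigen, an inhibitory receptor that binds cadherins. Its probe set was near the top of the arrays, at percentile 97.8 in control and 97.6 with curdlan. Its signal was 13.07 and 13.09 in control, 12.99 and 13.01 with curdlan, and 13.17 and 13.15 with R406 plus curdlan. The groups did not overlap, but they were close: the curdlan mean was lowest and the R406 plus curdlan mean highest. Neither difference passed the test, at -0.076 ± 0.0438 for curdlan (adjusted p = 0.523) and 0.16 ± 0.0438 for R406 plus curdlan against curdlan (adjusted p = 0.115). The second passed with a prior variance that follows the signal level, where the adjusted p was 0.00279, or 0.00268 with robust estimation added. It also passed when only probe sets above the median signal were fitted (limma, adjusted p = 0.0226).

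**Figure D1:**
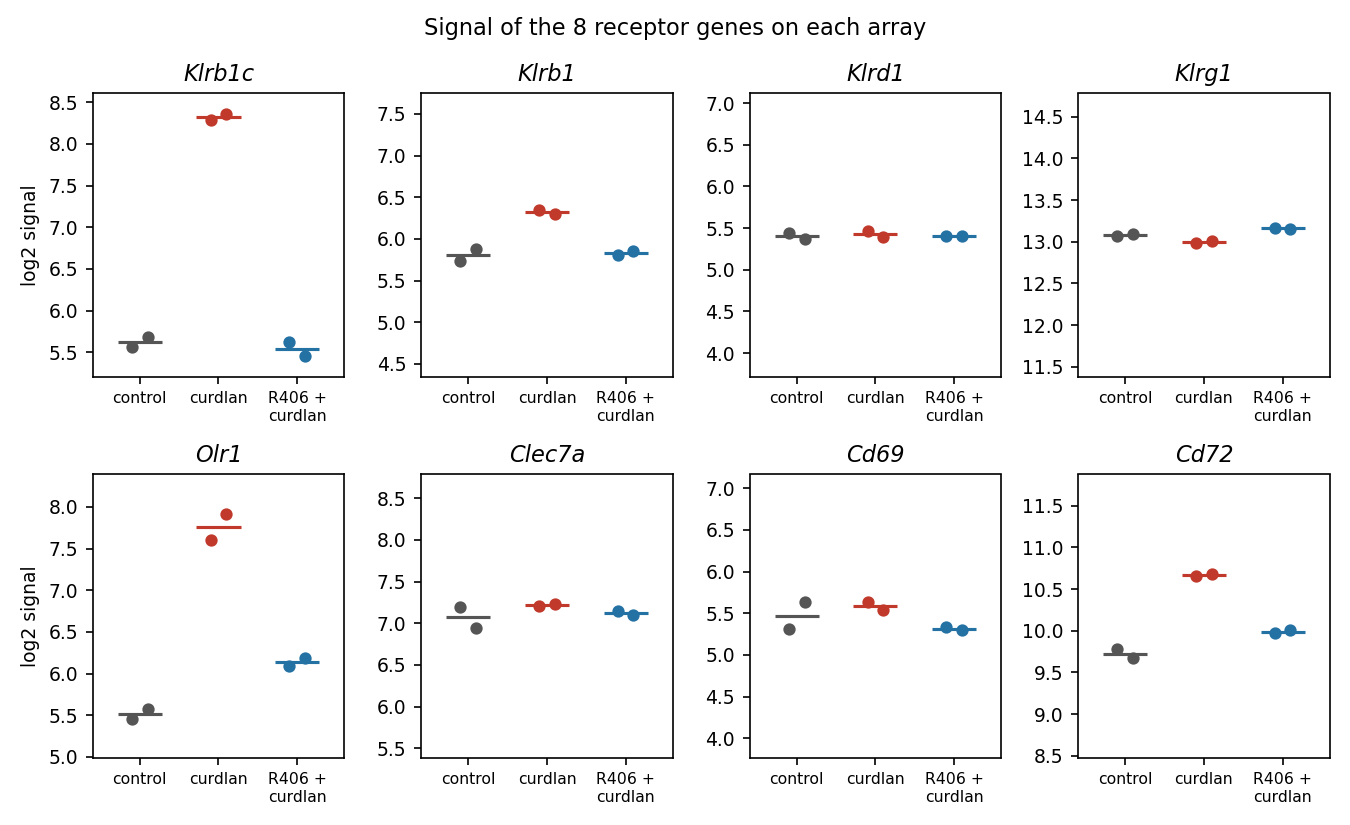
Log2 signal (y axis) of the 8 receptor genes on each array, by group (x axis), where points are arrays and bars are the means of 2 arrays. Each panel has its own y axis. The curdlan arrays of Klrb1c (8.29 and 8.36) and Olr1 (7.60 and 7.92) are above all others, while those of Klrd1 overlap the other groups.

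Olr1 encodes LOX-1, a scavenger receptor for oxidised low-density lipoprotein known from endothelial cells and macrophages. Its signal was 5.46 and 5.58 in control, 7.60 and 7.92 with curdlan, and 6.09 and 6.19 with R406 plus curdlan. No group overlapped another: control was lowest, R406 plus curdlan intermediate and curdlan highest. The curdlan minus control difference was 2.23 ± 0.119, or 4.70-fold. With R406 the signal was 3.06-fold lower than with curdlan alone (-1.61 ± 0.119) and stayed 1.53-fold above control (0.62 ± 0.119), which leaves 27.7% of the curdlan difference. Its percentile was 18.0 in control, 56.5 with curdlan and 29.3 with R406 plus curdlan.

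Clec7a is the rat gene of Dectin-1, the receptor through which curdlan acts. Its signal was 7.20 and 6.94 in control, 7.21 and 7.23 with curdlan, and 7.15 and 7.10 with R406 plus curdlan. The R406 plus curdlan arrays lay within the control pair, and the curdlan arrays were just above it. The curdlan difference was 0.15 ± 0.0931 (adjusted p = 0.556), with a 95% interval of -0.088 to 0.39. It was 0.28 without control replicate 1 and 0.019 without control replicate 2. The R406 minus curdlan difference was -0.099 ± 0.0931 (adjusted p = 0.604). At percentile 47.5 in control, the probe set sat near the middle of the arrays in a line that overexpresses Dectin-1. Whether the probes match the construct was not tested, so this signal is no check of the overexpression.

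Cd69, an early activation antigen of lymphocytes, had signals of 5.31 and 5.63 in control, 5.63 and 5.54 with curdlan, and 5.33 and 5.30 with R406 plus curdlan. The control arrays spanned nearly the whole range of the other groups. The curdlan difference was 0.12 ± 0.113 (adjusted p = 0.713), with a 95% interval of -0.17 to 0.41. The R406 plus curdlan arrays were both below the curdlan arrays, but the difference of -0.27 ± 0.113 did not pass (adjusted p = 0.253).

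Cd72 is best known as an inhibitory co-receptor of B cells that binds the semaphorin Sema4d and recruits the phosphatase Ptpn6. Its signal was 9.78 and 9.67 in control, 10.66 and 10.68 with curdlan, and 9.97 and 10.01 with R406 plus curdlan. The groups did not overlap, and R406 plus curdlan lay nearer to control than to curdlan. Cd72 rose with curdlan by 0.95 ± 0.0566, or 1.93-fold (limma, adjusted p = 0.00591), and was 1.60-fold lower with R406 than with curdlan alone (-0.68 ± 0.0566, adjusted p = 0.00594). The remaining difference from control was 0.27 ± 0.0566 (adjusted p = 0.0887), 28.5% of the curdlan difference. The curdlan call was lost without control replicate 2 or either curdlan array, and the R406 call without either R406 plus curdlan array, where adjusted p reached 0.0774 and 0.064.

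Of the 6 genes other than Klrb1c and Olr1, 2 (Klrb1 and Cd72) were called higher with curdlan than in control, where 1.04% of all probe sets were called higher, 0.551% lower and 1.59% in either direction. An unadjusted p under 0.05 was found for the same 2, against 14.4% of all probe sets. Over all 8 genes, the arrays of the groups did not overlap for 6, against 43.1% of all probe sets, and the median difference was 0.33, beside -0.011 over all probe sets. With R406 plus curdlan against curdlan, 2 of the 6 (Klrb1 and Cd72) were called lower, where 3.23% of all probe sets were called lower, 4.02% higher and 7.25% in either direction. The unadjusted p was under 0.05 for 3 of the 6, against 22.0% of all. Arrays did not overlap for 7 of the 8 genes, against 53.3%, and the median was -0.38, beside -0.0019 over all. With R406 plus curdlan against control, 0 of the 6 passed in limma and 1 (Cd72) had an unadjusted p under 0.05, against 20.4% of all probe sets. Cd72 was called there with a prior variance that follows the signal level (adjusted p = 0.017). In this contrast 1.44% of all probe sets were called higher, 0.791% lower and 2.23% in either direction, and 3 of the 8 genes did not overlap, against 53.5%. Since the genes were chosen with these contrasts known, and the contrasts share arrays, nothing is read from the counts.

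**Figure D2:**
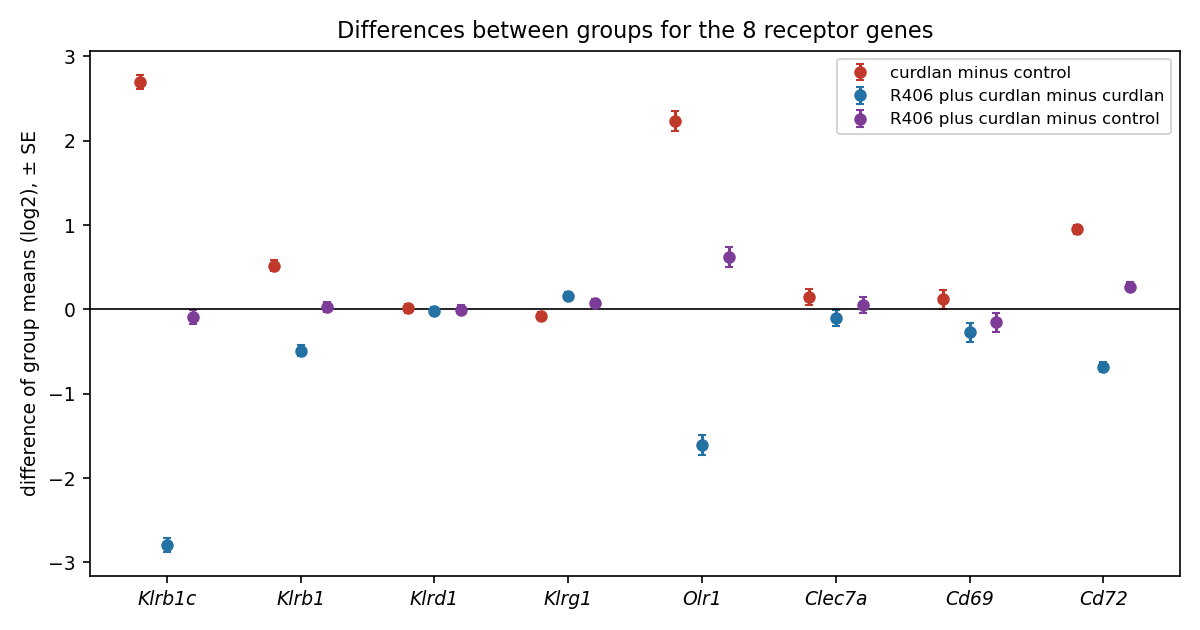
Difference of group means in log2 units (y axis) for each of the 8 receptor genes (x axis), with curdlan minus control in red, R406 plus curdlan minus curdlan in blue and R406 plus curdlan minus control in purple; bars are standard errors of the fit, with 2 arrays per group. Klrb1c reaches 2.70 with curdlan and Olr1 2.23, and Olr1 keeps 0.62 under R406.

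The control signals of several genes were low. No detection call was used here, so the control means were set beside 27 measured genes of unrelated tissues, such as liver, muscle and testis, whose control means ran from 5.64 to 8.78 with a median of 6.67. Klrb1c at 5.62, Olr1 at 5.52, Cd69 at 5.47 and Klrd1 at 5.41 lay below the lowest of these genes, and Klrb1 at 5.81 and Clec7a at 7.07 lay inside their range. With curdlan, Klrb1c at 8.32 and Olr1 at 7.76 also lay inside it. Of the unrelated genes, only Prm1 at 8.78 and Ckm at 8.56 were above them, and Ins1 came next at 7.52. Probe sets differ in how strongly they bind, so this comparison does not give a level of RNA. Cd72 and Klrg1 lay above the range in all 3 groups.

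**Figure D3:**
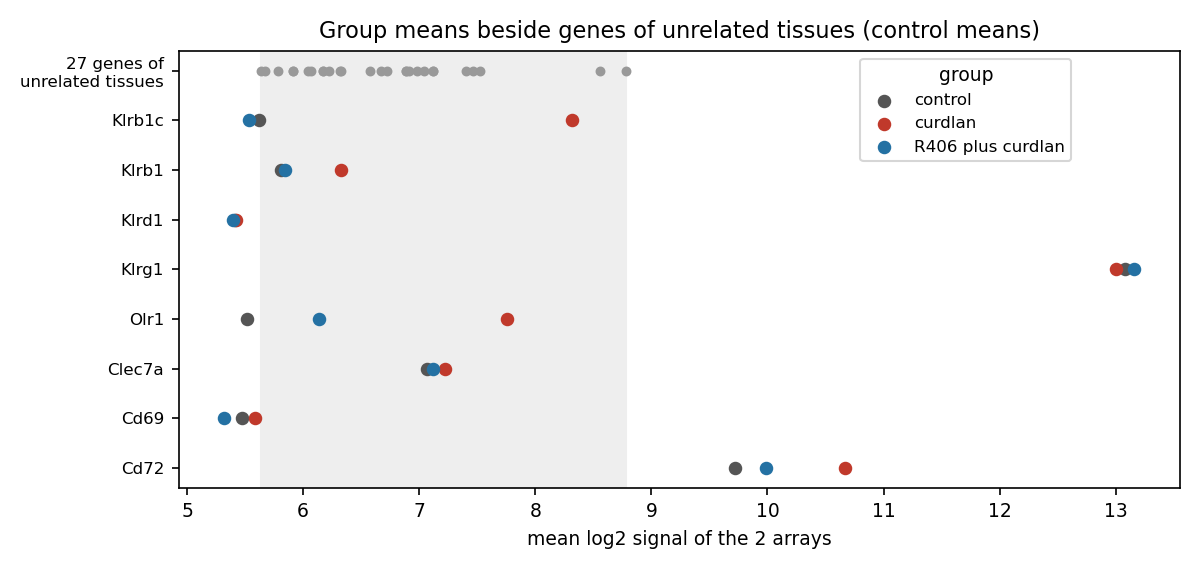
Mean log2 signal of 2 arrays (x axis) for the 8 receptor genes by group, with the control means of 27 genes of unrelated tissues on the top line and their range, 5.64 to 8.78, shaded. Klrb1c, Olr1, Cd69 and Klrd1 lie left of the shaded range in control.

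Neighbouring genes were read in the RefSeq order, within 5 places on either side. Around Klrb1c, the measured neighbours were Klrb1 and Clec2dl1, a Clec2-type gene whose curdlan difference of 0.064 ± 0.0641 was not called (adjusted p = 0.729). Around Olr1, the C-type lectin genes Clec9a and Clec1a differed with curdlan by 0.092 and 0.12 (adjusted p = 0.643 and 0.495), Klre1 by 0.15 (adjusted p = 0.45) and Tmem52b by -0.25 ± 0.0515 (adjusted p = 0.114). Gabarapl1, an autophagy gene 3 places from Olr1, had a curdlan difference of 0.20 ± 0.0465 (adjusted p = 0.149). It was called higher with R406 plus curdlan than in control, by 0.39 ± 0.0465 (adjusted p = 0.0297), a call lost without any 1 of the 6 arrays (adjusted p 0.0698 to 0.22). Beside the 2.23 of Olr1, the curdlan differences of its measured neighbours thus lay between -0.25 and 0.20.

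**Figure D4:**
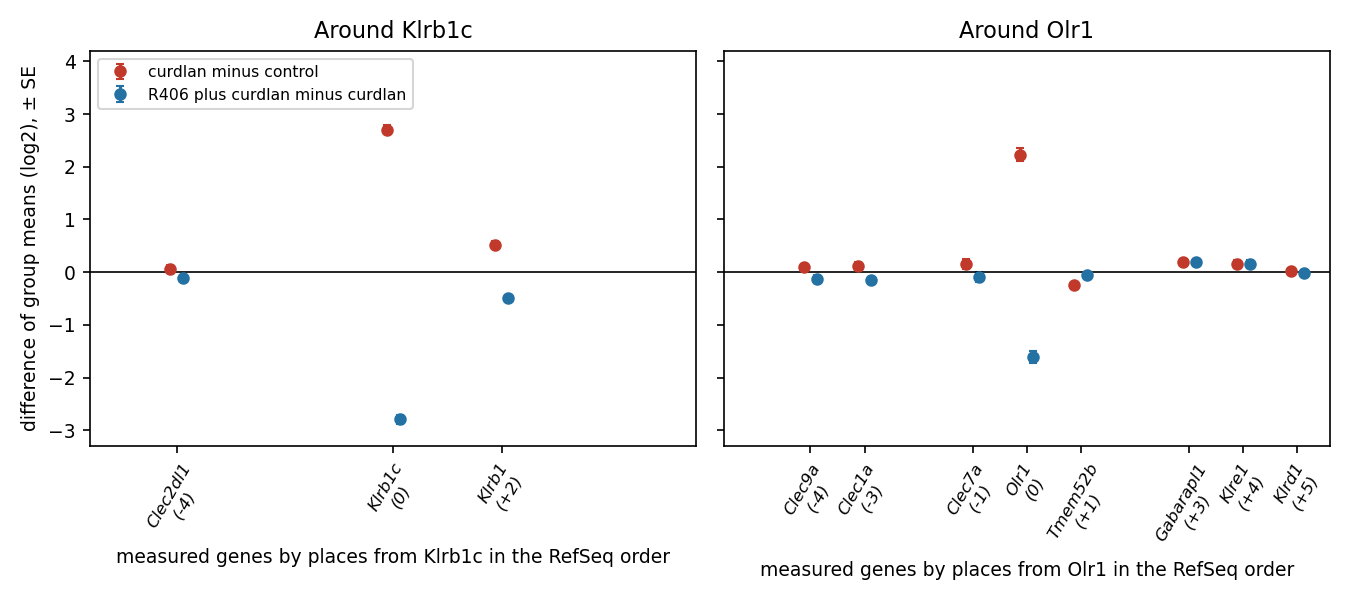
Difference of group means in log2 units (y axis, ± standard error, 2 arrays per group) for the measured genes within 5 places of Klrb1c (left) and Olr1 (right) in the RefSeq order (x axis, places in brackets). Klrb1c and Olr1 stand above their neighbours, and Klrb1 at 0.52 is the other displaced gene on the left.

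Outside the 8, the annotation and the arrays covered 67 of 86 listed genes of the C-type lectin superfamily. Klrk1 encodes the activating receptor NKG2D, which pairs with the adaptor Hcst. It was the 1 gene of the 67 called with curdlan, where 1.59% of all probe sets were called. The median difference of the list was -0.020, beside -0.011 over all probe sets. The Klrk1 signal was 9.50 and 9.29 in control, 10.63 and 10.62 with curdlan, and 9.20 and 9.24 with R406 plus curdlan. Both curdlan arrays were above the rest, and both R406 plus curdlan arrays were below control. Klrk1 rose with curdlan by 1.23 ± 0.0803, or 2.35-fold (adjusted p = 0.00786), a call lost without curdlan replicate 1 (adjusted p = 0.079) or replicate 2 (adjusted p = 0.0941). It fell by 1.40 with R406 relative to curdlan (SE 0.0803, adjusted p = 0.00232), a call that held without each array in turn (adjusted p 0.00599 to 0.0358). Thbd, thrombomodulin, rose with R406 relative to curdlan by 0.45 ± 0.0455 (adjusted p = 0.00892), a call lost without either curdlan or either R406 plus curdlan array (adjusted p up to 0.0907). With R406 plus curdlan against control, 0 of the 67 passed in limma and 7 had an unadjusted p under 0.05, against 20.4% of all probe sets. Klrc1, an NKG2 partner of Klrd1, had a curdlan difference of 0.51 ± 0.21 (adjusted p = 0.369), Clec12b of 0.54 ± 0.105 (adjusted p = 0.098) and Klrb1b of 0.10 ± 0.081 (adjusted p = 0.651), none of which passed.

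**Figure D5:**
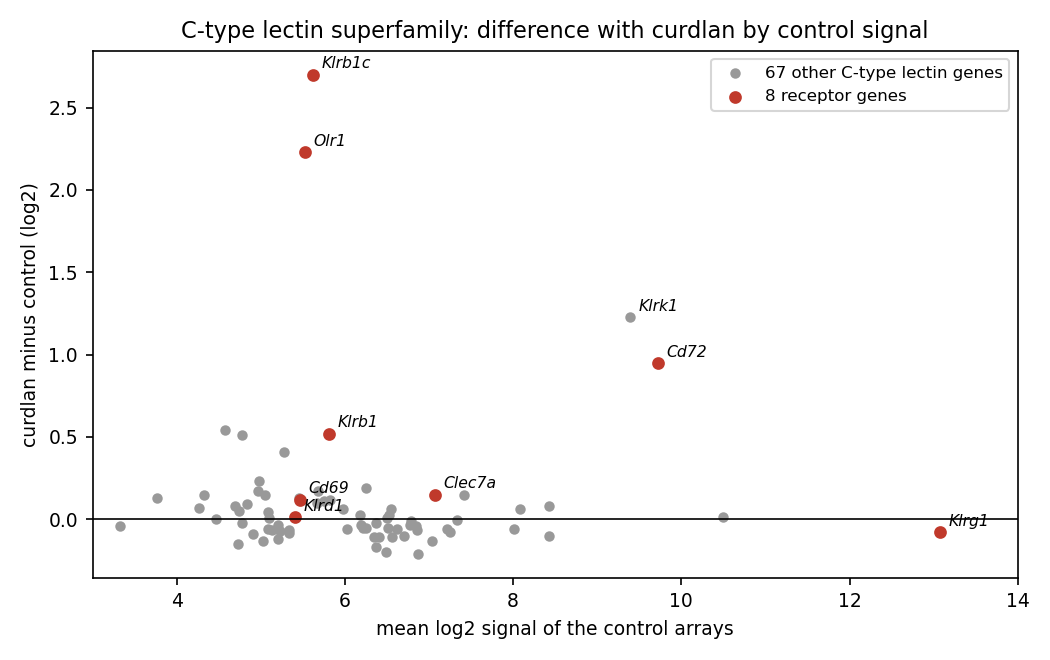
Curdlan minus control difference in log2 units (y axis) against the mean log2 signal of the control arrays (x axis) for the 8 receptor genes and 67 other C-type lectin genes, 1 point per gene. Klrb1c and Olr1 are the highest points, Klrk1 at 1.23 and Cd72 at 0.95 follow, and most others lie near 0.

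Ligands, adaptors and phosphatases that work with these receptors made a list of 26, of which 23 were measured. Clec2d, a ligand of NKR-P1 receptors, had means of 8.43, 8.51 and 8.35 in control, curdlan and R406 plus curdlan (curdlan difference 0.081, adjusted p = 0.80). With curdlan, Klrk1 was again the 1 called gene, being on this list too, against 1.59% of all probe sets called. The median was -0.017. With R406 relative to curdlan, Hcst rose by 0.29 ± 0.043 (adjusted p = 0.0237) while Klrk1 fell, and Ptpn6, the phosphatase that Cd72 recruits, fell by 0.26 ± 0.0464 (adjusted p = 0.0401). The Hcst and Ptpn6 calls were lost without any 1 of the 6 arrays (adjusted p up to 0.154 and 0.23). With R406 plus curdlan against control, 0 of the 23 passed in limma and 6 had an unadjusted p under 0.05, against the same 20.4%.

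Among 24 measured genes of the Dectin-1 pathway, from a list of 30, 0 passed with curdlan in limma and 5 had an unadjusted p under 0.05, against 14.4% of all probe sets. The median difference was 0.012. The kinase Syk differed by -0.12 (adjusted p = 0.31) and the adaptor Card9 by -0.093 (adjusted p = 0.726). Nfatc2, a calcineurin-dependent factor, fell by 0.54 ± 0.0684 with R406 relative to curdlan (adjusted p = 0.016) and by 0.45 relative to control (adjusted p = 0.0496). The first call was lost without either curdlan or either R406 plus curdlan array, and the second without any 1 of the 6. Among 14 measured scavenger receptors and related genes, of which some, such as Cd36, also bind modified lipoprotein and others bind other ligands, 0 passed with curdlan in limma and 2 had an unadjusted p under 0.05, against the same 14.4%. Cd36 had a curdlan difference of 0.83 ± 0.128 (adjusted p = 0.0586) and fell by 0.85 ± 0.128 with R406 relative to curdlan (adjusted p = 0.0249), a call lost without either array of those groups (adjusted p up to 0.124).

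Markers of the cells that usually carry these receptors were read alongside. Of 20 NK and T cell markers, 6 had a control mean above the median over all probe sets, among them Nkg7 at 13.81, while Cd3d, Cd3e, Cd3g and Ncr1 were at 5.81, 6.08, 4.74 and 6.21. Klrk1 rose with curdlan, and Cd7 rose with R406 relative to curdlan by 1.29 ± 0.102 (adjusted p = 0.00532) and relative to control by 1.07 ± 0.102 (adjusted p = 0.0182), the latter call lost without either control or either R406 plus curdlan array. The summed linear signal of this list was 18002 to 18157 in control, 18635 to 18670 with curdlan and 19143 to 19608 with R406 plus curdlan. Without Klrk1 and Cd7, the other 18 summed to 15944 to 16142, 15799 to 16000 and 15883 to 15940. Of 7 B cell markers, 1 had a control mean above the median over all probe sets. The control means were 5.06 for Ms4a1, 5.22 for Cr2, 5.71 for Cd22, 6.56 for Ebf1, 6.89 for Blk, 7.22 for Cd79b and 7.42 for Fcrla. Fcrla rose with curdlan by 0.72 ± 0.103 (limma, adjusted p = 0.0494), a call lost without any 1 of the 6 arrays. It fell by 0.67 with R406 relative to curdlan (adjusted p = 0.027), a call lost without either array of those groups. The B cell sum was 652 to 660 in control, 768 to 795 with curdlan and 648 to 671 with R406 plus curdlan, so that control and R406 plus curdlan overlapped. Without Fcrla, the sum of the other 6 was 475 to 495 in control, 484 to 513 with curdlan and 481 on both R406 plus curdlan arrays, and their curdlan differences were -0.10 to 0.094.

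Of 17 macrophage and dendritic cell markers, 0 passed with curdlan in limma, where 1.59% of all probe sets were called. An unadjusted p under 0.05 was found for 2, against 14.4% of all probe sets, and the median curdlan difference was -0.022. The sum was 3087 to 3149 in control, 3375 to 3504 with curdlan and 2995 to 3014 with R406 plus curdlan. Without Itgam, whose curdlan difference was 0.33 (adjusted p = 0.102), the other 16 summed to 1710 to 1744, 1652 to 1718 and 1625 to 1658. Itgam fell by 0.36 ± 0.0661 with R406 relative to curdlan (adjusted p = 0.0408), a call lost without any 1 of the 6 arrays. Of 10 endothelial markers, 0 passed with curdlan and 0 had an unadjusted p under 0.05, against the same shares of all probe sets. Their sum was 3236 to 3287 in control, 3156 to 3260 with curdlan and 3467 to 3498 with R406 plus curdlan. Tek rose by 0.29 ± 0.0549 with R406 relative to curdlan (adjusted p = 0.0452), also lost without any 1 array. All arrays came from the RBL-2H3 line, so the design includes no other cell type and these sums describe genes of that line.

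The measured patterns closest to the 2 leading genes were found by Euclidean distance over the 6 arrays, after each probe set was centred on its mean. For Klrb1c they were Il13 (distance 0.626), Il4 (0.653), Nr4a2 (0.948), Nr4a3 (0.962) and Nfkbiz (1.05). Il13 and Il4, which encode type 2 cytokines, differed with curdlan by 3.15 and 2.26, beside 2.70 for Klrb1c. With R406 plus curdlan relative to control, Il13, Il4, Nr4a3 and Nfkbiz differed by -0.23, -0.21, -0.15 and -0.11, beside -0.086 for Klrb1c, while Nr4a2 differed by 0.70. For Olr1 the closest were Ccl7 (distance 0.728), Nfkbiz (0.782), Csrnp1 (0.896), Tnfrsf12a (1.01) and Gpr183 (1.06). Ccl7, a chemokine, differed with curdlan by 1.64 and with R406 plus curdlan relative to control by 0.048, whereas Olr1 kept 0.62.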

How the data were processed

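Each deposited value is a log2 signal of 1 probe set on 1 array. The submitters' processing notes name Affymetrix Expression Console as the authors' program. The sources used here do not give its version, its background correction and normalization, or the genome build. Of 29214 probe sets, 15310 had 1 gene symbol, 323 had several and 13581 had none. Members were matched by the annotation's symbol. The gene ID of the Olr1 probe set is that of LOX-1 in RefSeq, whereas an olfactory receptor carries the same name as a synonym. All 6 arrays were fitted in 1 limma model (R 4.3.3, limma 3.58.1, lmFit and eBayes) with no filter and no further normalization, at 3 residual degrees of freedom, and a change was called when its p, adjusted by Benjamini-Hochberg across the whole table, was under 0.05. The fit was tested on simulated data. Promoters and gene order came from RefSeq tables of GRCr8. Alternatives were quantile normalization, median centring, a filter at the median signal, other eBayes priors, only the arrays compared, the replicate number as a block, a threshold of 0.01 and leaving out each array. Named genes were all 8 members, up to 6 called genes per list, the 5 closest patterns and the neighbours within 5 places. Members and lists were chosen with earlier results of these data known. Array number limits the precision.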

Additional observations from a re-analysis of the deposited data

How the results depend on the processing

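Over all settings run, the curdlan differences of Klrb1c, Olr1, Klrb1 and Cd72 from control and from R406 plus curdlan kept their direction; without 1 array, the curdlan minus control difference of Klrb1c was 2.64 to 2.77 and that of Olr1 2.07 to 2.39. Of 222 alternative values of the changes of the other 6 genes, 187 kept direction and side of the threshold, 17 fell short of it, 6 newly passed and 12 changed sign. The sign changed for differences close to 0. The R406 plus curdlan minus curdlan difference of Klrd1 was 0.0023 after median centring, and its R406 plus curdlan minus control difference was 0.009 after quantile normalization and 0.022 after centring. Without 1 array, values ran from -0.042 to 0.28 for Cd69 and -0.02 to 0.05 for Klrd1 in curdlan minus control, and from -0.052 to 0.016 for Klrd1 in R406 plus curdlan minus curdlan. In R406 plus curdlan minus control they ran from -0.04 to 0.095 for Klrb1, -0.17 to 0.0037 for Klrb1c, -0.08 to 0.18 for Clec7a, -0.31 to 0.011 for Cd69 and -0.038 to 0.032 for Klrd1.

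Counts of called probe sets moved more, and are given in this order: curdlan against control (465), R406 plus curdlan against curdlan (2118), R406 plus curdlan against control (652). They were 1572, 3717 and 2278 with a filter at the median signal, 68, 1232 and 182 with only the 4 arrays compared, 1557, 3767 and 2341 with a trended prior, 1598, 3812 and 2400 with a trended and robust prior, and 78, 561 and 66 at a threshold of 0.01. Without 1 array they ran from 32 to 68, 210 to 1232 and 15 to 182, where a lone array was assumed to vary like the other groups. Of the 6 genes other than Klrb1c and Olr1, 2, 2 and 0 were called; without 1 array this was 0 to 1, 0 to 2 and 0. In curdlan against control it was 1 (Cd72) with only the 4 arrays and at the threshold of 0.01. The median filter kept only 2 of the 6 genes, Cd72 and Klrg1, so Klrb1 was not tested there. With that filter, 1 (Cd72) was called in curdlan against control. At the threshold of 0.01, 1 (Cd72) was called in R406 plus curdlan against curdlan. In the same contrast 3 (Klrb1, Cd72 and Klrg1) were called with either trended prior, and 2 (Cd72 and Klrg1) with the median filter. Against control under R406, 1 of the genes tested (Cd72) was called with the median filter and with either trended prior. The median filter uses fewer probe sets, and the fits with only the 4 arrays or without 1 array use fewer arrays. Leaving out an array of the group not compared gave the same fit as only the 4 arrays compared. A call lost that way does not depend on the values of the array left out. This holds for each call described above as lost without any 1 of the 6 arrays. The trended priors and the threshold of 0.01 use all of both. Why the counts moved was not tested.

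The labels number the arrays of each group 1 and 2. Deviations from the group means were correlated between same-numbered arrays. The values were -0.115 for control and curdlan, -0.00454 for control and R406 plus curdlan, and 0.113 for curdlan and R406 plus curdlan. These values cannot show whether same-numbered arrays share a culture or a batch. With the replicate number as a block, 102, 1129 and 62 probe sets were called; the curdlan call of Klrb1 was not made (adjusted p = 0.101), which left 1 of the 6 genes. No other probe set of the 8 genes was found, so that alternative was not run. No detection call was used, so whether differences at low signals are understated is not known.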
